A study of Mus musculus with 8 samples.

Results

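The type I interferon-stimulated genes described here are 37 genes that cells switch on when type I interferon reaches them, taken by symbol from a fixed list in the 4 expression matrices. All 37 were present among the 31053 genes of the files. They were followed in single sorted CD8 T cells of spleen and liver, from wild-type (WT) C57BL/6 mice and from EomesTG mice on that background. EomesTG mice were homozygous (EomesTg/Tg) and express the T-box factor Eomes, known from memory and cytotoxic T cells, in their T cells as a gain of function. For each strain the cells of 3 mice were pooled and CD8+ cells sorted, which gave 1 expression library and 1 T cell receptor library per organ, and both organs of a strain come from the same mice. The promoter of the transgene and the age of the mice are not given in the sources used here, and transgene reads could not be split from endogenous Eomes. The question addressed was at what level these genes stood in each library, in which phenotypes, and whether a difference lay in few high cells or in all of them.

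Type I interferons bind the receptor Ifnar1 and Ifnar2, whose kinases Jak1 and Tyk2 activate Stat2. Together with Irf9 it is part of a complex that binds the interferon-stimulated response element (ISRE) in the promoters of its target genes. The targets sense viral nucleic acid or block its copying and translation, and in T cells their level can rise with exposure to interferon. Interferon gamma acts mainly through another element (GAS), and many genes answer to both.

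Stretches of promoters are shown for members with an ISRE, a motif that the choice of members did not use. Its core, GAAA, any 2 bases and GAAA again (TTTC, 2 bases and TTTC when it lies on the other strand), was searched on both strands in the 250 bases before the RefSeq start of each gene (GRCm38.p6, the mm10 genome). Promoters were matched for 29 of the 37 members. The core was found in 16 of them (55.2%) and in 936 of 27025 genes (3.46%). The GAS core TTCNNNGAA, the same on both strands, was found in 4 members (13.8%) and in 8.13% of genes. Matches of the motifs were counted separately, also where they overlap. Each stretch below is 60 bases, 5′ to 3′ on the strand of the gene, with the core nearest to the start in capitals. Ifit1, Isg15 and Oas1a hold further matches in the stretch, left in lower case.
Ifit1: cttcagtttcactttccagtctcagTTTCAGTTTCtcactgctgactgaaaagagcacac
Ifit3: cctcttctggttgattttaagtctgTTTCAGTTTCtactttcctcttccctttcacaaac
Ifit3b: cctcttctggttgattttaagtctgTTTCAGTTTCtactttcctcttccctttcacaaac
Rsad2: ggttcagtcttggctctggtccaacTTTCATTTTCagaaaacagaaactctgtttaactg
Oas3: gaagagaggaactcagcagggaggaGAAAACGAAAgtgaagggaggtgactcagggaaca
Isg15: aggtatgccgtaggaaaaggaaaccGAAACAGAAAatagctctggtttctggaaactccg
Oas1a: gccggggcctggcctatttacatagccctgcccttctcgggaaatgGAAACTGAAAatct

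The Ifit1 stretch lies at chr19:34640779-34640838 on the plus strand, Ifit3 at chr19:34583382-34583441 (+), Ifit3b at chr19:34607778-34607837 (+) and Rsad2 at chr12:26456538-26456597 on the minus strand. Oas3 lies at chr5:120777700-120777759 (-), Isg15 at chr4:156200850-156200909 (-) and Oas1a at chr5:120907526-120907585 (-). The core in capitals begins 85 bases before the start of Ifit1, 122 before Ifit3, 154 before Ifit3b, 120 before Rsad2, 75 before Oas3, 66 before Isg15 and 14 before Oas1a. Ifit3 and Ifit3b have the same letters in this window, and the genes themselves are near-identical copies, so reads may be split between them and their separate values are uncertain. The same limit holds for Oas1a, Slfn8 and Phf11b, which have close relatives. The members are partly clustered in the genome, with 5 Ifit genes on chromosome 19, 5 Oas and Oasl genes on chromosome 5, and Slfn1, Slfn5 and Slfn8 on chromosome 11 together with Dhx58 and Xaf1. In the annotation 11 members overlap another gene, 4 of them on the same strand (for example Ifi203) and 9 on the opposite strand (for example Irf7 and Slfn5).

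Lists of 4 values follow the order WT spleen, EomesTG spleen, WT liver, EomesTG liver. The T cells that passed the filters numbered 5333, 5726, 3125 and 4517. Their unique molecular identifiers (UMIs) numbered 28754966, 28282240, 18938565 and 20525760, at 5025, 4751.5, 5465 and 3918 per median cell. Pairs of libraries shared 23 to 59 cell barcodes. Levels are UMIs summed over the T cells of a library and scaled to a total of 1000000 (CPM), and since each UMI marks the 5′ end of 1 molecule they are not divided by gene length. Intervals are 95% exact intervals that cover counting error only, with no spread between mice, and no difference was tested. Eomes stood at 86.9, 134, 84.7 and 182 CPM. Cd8a stood at 496, 579, 612 and 933 CPM, and Cd8b1 at 1260, 1202, 1157 and 826 CPM. The mixture of phenotypes differed: summed markers of exhausted cells were at 212, 183, 848 and 3718 CPM, and those of naive cells at 2608, 2684, 1931 and 883 CPM. Of markers of cells that could accompany a sort, 8 hepatocyte genes were at 0.104, 0, 6.44 and 1.41 CPM in sum, 7 genes of plasmacytoid dendritic cells, a main source of type I interferon, were at 2.05, 1.34, 2.80 and 3.12 CPM, 10 myeloid genes at 80.1, 82.4, 99.3 and 127 CPM and 8 B cell genes at 265, 245, 192 and 95.1 CPM. All 8 hepatocyte genes were at 0 in EomesTG spleen, and Siglech was at 0 in all but EomesTG spleen. Their part in the results was not tested.

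In spleen the 37 genes together made up 0.210% of UMIs in WT and 0.185% in EomesTG, and in liver 0.224% and 0.177%. These shares are 2099 (2082 to 2116), 1852 (1836 to 1868), 2235 (2214 to 2257) and 1773 (1755 to 1792) CPM, so both EomesTG libraries were below their WT library. The intervals did not overlap, but they hold no spread between mice. Ifi27l2a, a small interferon-induced protein of mitochondria and nuclear membrane (chr12:103442167-103443680), was the most abundant member at 739, 456, 750.1 and 512 CPM, and held 35.2, 24.6, 33.6 and 28.9% of the members' UMIs. After it came Ifi203, a DNA-binding member of the p200 family (171, 154, 185 and 169 CPM), Bst2, the tetherin that holds budding virus at the cell surface (127, 156, 133 and 85.2 CPM), and Slfn1, a Schlafen gene tied to T cell quiescence (127, 163, 95.9 and 60.02 CPM). Averaged over the libraries, 4 members stood at 100 CPM or more, 25 between 10 and 100 CPM and 8 below 10 CPM. Ifi44 had 13, 27, 1 and 1 UMIs and Oas2 stood at 1.70, 0.707, 1.37 and 0.244 CPM, too few for a ratio in liver. The genes of type I interferon itself were close to absent: of 18 ligand genes 17, 17, 16 and 17 had 0 UMIs, where a count of 0 allows up to 0.104, 0.106, 0.158 and 0.146 CPM for a gene, and the others had 3, 6, 16 and 11 UMIs in all.

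**Figure D1:**
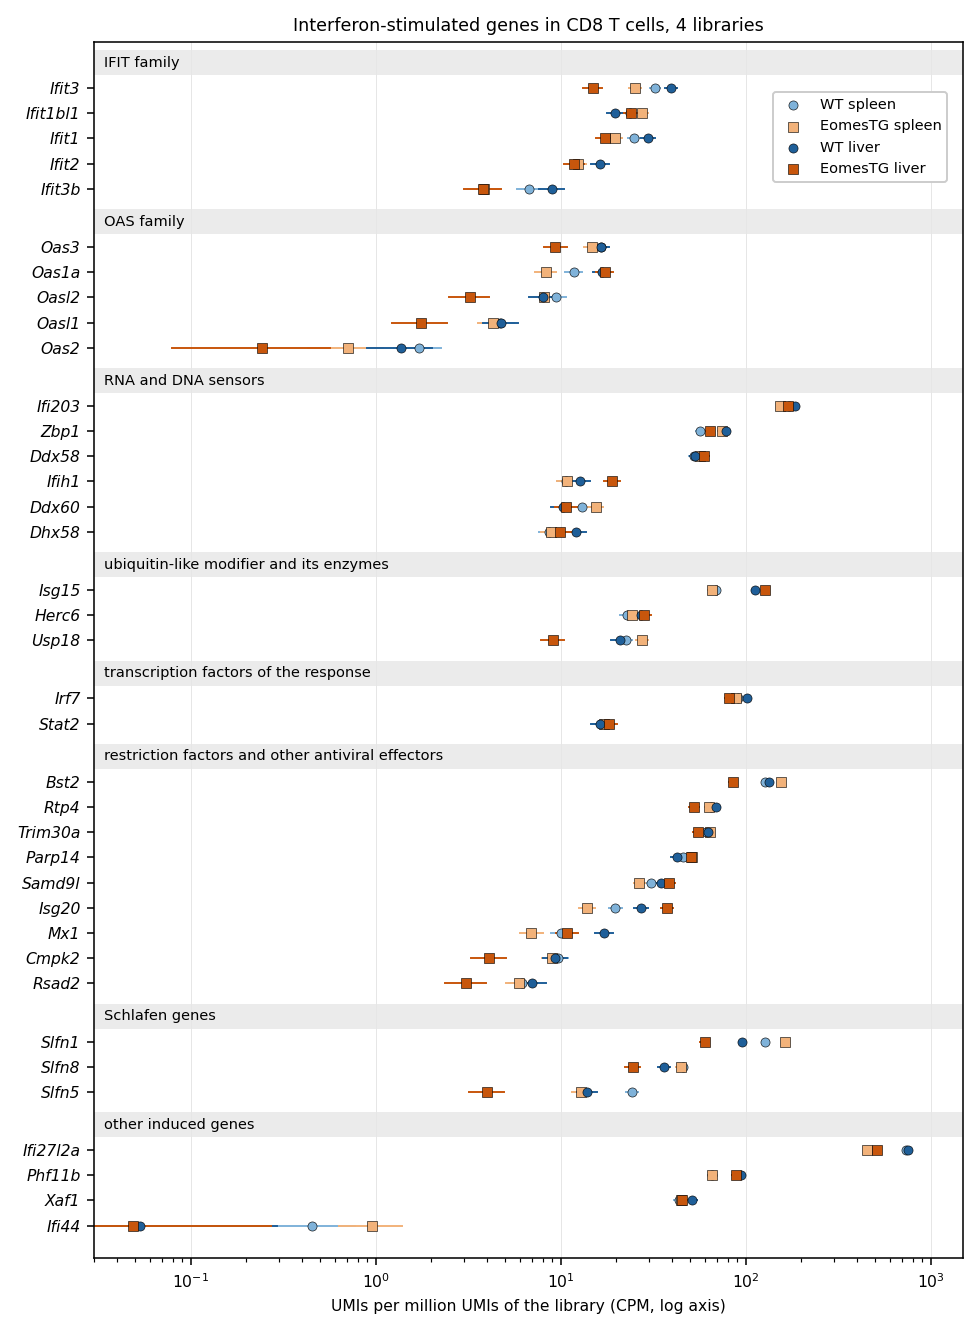
Level of each of the 37 genes, grouped by role, in the 4 libraries, in CPM on a log axis with 95% counting intervals. Ifi27l2a stands apart at 456 to 750.1 CPM, and the EomesTG liver point lies left of the other 3 for Ifit3, Usp18, Slfn1, Slfn5 and Bst2.

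In liver, 24 of the 35 members measured had a log2 ratio of EomesTG to WT below 0, whatever its size or interval. The share of all genes below 0 was not counted. A gene was called higher or lower when its CPM differed by at least 1.5-fold with the interval on that side of equality, among genes with at least 50 UMIs over both libraries. By this rule 13 members were lower and 0 were higher, while of 10798 genes 6.67% were called lower and 13.7% higher. The median log2 ratio of EomesTG to WT was -0.32 over the members and 0.12 over all genes, and the members' sum gave -0.33 (-0.35 to -0.31). Counting each clone once, so that large clones weigh no more than single cells, left 5 members lower (Cmpk2, Ifit3, Ifit3b, Mx1 and Slfn5), where 4.51% of genes were lower. At 2-fold 8 were lower, where 3.17% of genes were. In sums over a library, fewer cells with a gene and less RNA per cell cannot be told apart.

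The IFIT proteins bind viral RNA at ribosomes and block its translation. Ifit3 stood at 32.3, 25.2, 39.5 and 14.9 CPM, highest in WT liver and lowest in EomesTG liver. The log2 ratio in liver was -1.41 (-1.61 to -1.22). Ifit3b, its neighbouring copy, stood at 6.71, 3.85, 8.98 and 3.80 CPM and was lower in EomesTG in both organs, with log2 ratios of -1.24 (-1.65 to -0.85) in liver and -0.80 (-1.15 to -0.45) in spleen. Ifit1 (chr19:34640871-34650009), at 24.9, 19.7, 29.7 and 17.3 CPM, was called lower in liver at -0.78 (-0.98 to -0.59), while its ratio in spleen, -0.33 (-0.50 to -0.17), was not called. Ifit2 stood at 12.1, 12.4, 16.3 and 11.8 CPM, and Ifit1bl1, a divergent relative, at 23.6, 27.5, 19.6 and 24.1 CPM, with neither called in a comparison.

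Of 9 antiviral enzymes and restriction factors 4 were lower in EomesTG liver, where 6.67% of all genes were lower and 13.7% higher. The 4 are among the lower members already counted, and the log2 ratio of the sum of the 9 was -0.25. Rsad2 (viperin, which makes a chain-terminating nucleotide) stood at 6.16, 5.94, 7.02 and 3.07 CPM, and Cmpk2, the nucleotide kinase encoded beside it, at 9.70, 9.02, 9.29 and 4.09 CPM. EomesTG liver was the low library for both, at log2 ratios of -1.19 (-1.65 to -0.75) and -1.18 (-1.58 to -0.80) against WT liver. Mx1 stood at 10.0, 6.93, 17.2 and 10.9 CPM. It was high in WT liver, and EomesTG was lower there at -0.66 (-0.92 to -0.41). Bst2 ranged from 127 to 156 CPM in 3 libraries and stood at 85.2 CPM in EomesTG liver, a log2 ratio of -0.64 (-0.73 to -0.56) against WT liver. The other restriction factors, Rtp4, Trim30a, Parp14, Samd9l and Isg20, gave no call between genotypes in liver, with log2 ratios from -0.39 for Rtp4 to 0.46 for Isg20.

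OAS enzymes make the second messenger that activates RNase L, an activity that mouse Oasl2 has and Oasl1 lacks. Oas3 stood at 16.4, 14.8, 16.4 and 9.35 CPM, with a log2 ratio of -0.81 (-1.08 to -0.55) in liver. Oasl1, at 4.69, 4.28, 4.75 and 1.75 CPM, and Oasl2, at 9.42, 8.17, 7.97 and 3.22 CPM, gave -1.44 (-2.04 to -0.87) and -1.31 (-1.75 to -0.88). For all 3 genes the libraries other than EomesTG liver lay close together. Oas1a differed from them, at 11.8, 8.27, 16.7 and 17.2 CPM, with no difference between genotypes in liver (0.04). Oas2, the least abundant of the family, was called lower in EomesTG spleen at -1.27 (-2.10 to -0.49).

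The ubiquitin-like modifier Isg15 and its enzymes split. Usp18, the protease that removes Isg15 and silences the receptor, stood at 22.4, 27.5, 20.8 and 9.06 CPM, lower in EomesTG liver at -1.20 (-1.46 to -0.94). Isg15 (chr4:156199424-156200818) stood at 69.5, 65.7, 112 and 128 CPM, and EomesTG liver was the highest library, with a ratio to WT liver of 0.18 (0.10 to 0.27) that was below the 1.5-fold line. Herc6, the mouse ligase for Isg15, stayed between 22.7 and 28.3 CPM.

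Of the Schlafen genes, Slfn5 (chr11:82951349-82964840) showed the steepest order, at 24.4, 12.8, 13.9 and 3.99 CPM. It was lower in EomesTG in both organs, by log2 ratios of -1.80 (-2.17 to -1.43) in liver and -0.93 (-1.12 to -0.74) in spleen. An antisense gene, Slfn5os, overlaps it, and the sources used here do not say whether the counting used strand. Slfn1 was lower in EomesTG liver at -0.68 (-0.78 to -0.57), where its spleen ratio was 0.36 (0.29 to 0.42). Slfn8 stood at 45.6, 44.4, 36.3 and 24.5 CPM, with -0.57 (-0.74 to -0.40) in liver, just short of the 1.5-fold line.

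The sensors of viral nucleic acid and the transcription factors gave no call between genotypes. Ddx58 (RIG-I) stood at 52.3, 56.6, 53.5 and 59.6 CPM and Ifih1 (MDA5) at 10.7, 10.7, 12.7 and 18.9 CPM, the latter with a liver log2 ratio of 0.58 (0.34 to 0.82) that did not reach 1.5-fold. Dhx58, their regulator, lay between 8.69 and 12.04 CPM and Ddx60 between 10.3 and 15.5 CPM. Zbp1, the sensor of Z-form nucleic acid that can start necroptosis, stood at 56.7, 74.2, 78.6 and 63.9 CPM. Irf7, the factor that amplifies interferon production, stood at 91.0, 88.9, 101 and 81.4 CPM and Stat2 at 16.4, 17.1, 16.3 and 18.2 CPM. None of these 7 genes, nor Ifi203, was called between genotypes in either organ. Xaf1, a pro-apoptotic partner of XIAP, lay between 43.4 and 51.0 CPM and Phf11b, a PHD finger gene, between 65.4 and 94.2 CPM, also without a call between genotypes.

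**Figure D2:**
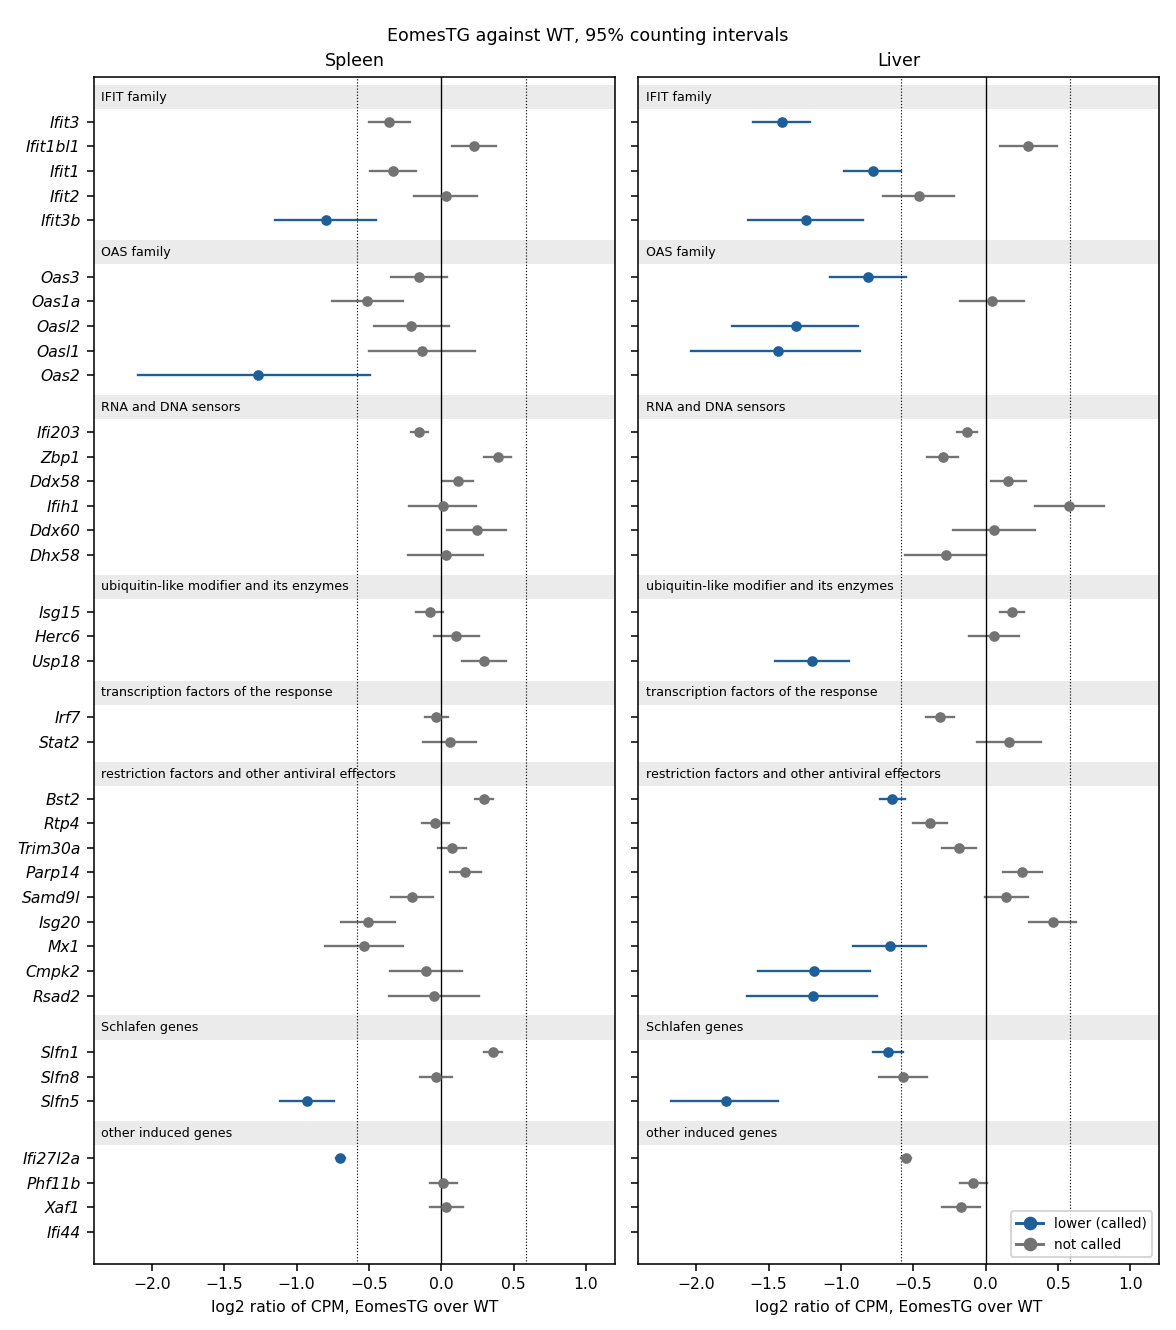
Log2 ratio of EomesTG to WT for each gene in spleen (left) and liver (right), with 95% counting intervals, blue where called lower and dotted lines at 1.5-fold. In liver 13 genes lie left of the line and 0 are called to its right, and in spleen 4 are called lower. Ifi44 in both organs and Oas2 in liver had too few UMIs for a ratio.

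In spleen the difference was narrower. EomesTG had 4 members lower and 0 higher of 36 measured, while of 10774 genes 4.93% were lower and 2.68% higher. The 4 were Ifi27l2a, Ifit3b, Oas2 and Slfn5. The members' median log2 ratio was -0.04 and that of all genes -0.007. The ratio of Ifi27l2a was -0.70 (-0.73 to -0.67). The members' sum gave -0.18 (-0.20 to -0.16) with it and 0.034 without Ifi27l2a, Ifi203 and Bst2, the members of the highest level. In liver the Ifi27l2a ratio was -0.55 (-0.59 to -0.51), under the 1.5-fold line, and the sum without those 3 genes was -0.21.

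Liver was compared with spleen within each genotype. In WT mice 2 members were higher in liver, 1 was lower and 33 were not called, while of 10740 genes 11.4% were higher and 3.39% lower, so the members were called no more often than other genes. At 2-fold 0 were called either way. The higher ones were Isg15, at a log2 ratio of 0.69 (0.61 to 0.78), and Mx1, at 0.78 (0.55 to 1.01). Slfn5 was lower, at -0.81 (-1.02 to -0.61). In EomesTG mice 5 members were higher and 11 lower of 35, while of 10941 genes 23.6% were higher and 9.69% lower. Isg20, an exonuclease of viral RNA, went from 13.9 CPM in spleen to 37.5 CPM in liver, a log2 ratio of 1.43 (1.26 to 1.61). Oas1a gave 1.06 (0.82 to 1.30), Isg15 0.96 (0.87 to 1.04), Ifih1 0.81 (0.59 to 1.04) and Mx1 0.65 (0.37 to 0.93). The lower genes were led by Slfn5 at -1.68 (-2.04 to -1.33), Usp18 at -1.60 (-1.84 to -1.37) and Slfn1 at -1.44 (-1.53 to -1.35). Oasl2 (-1.34), Oasl1 (-1.29), Cmpk2 (-1.14), Rsad2 (-0.95), Bst2 (-0.87), Slfn8 (-0.86), Ifit3 (-0.76) and Oas3 (-0.66) were the others. This comparison shares the EomesTG liver library with the comparison of genotypes in liver, so the low values of that library enter both. The members' sum gave -0.06 (-0.08 to -0.04), and 0.047 without the cluster of member-high cells described with the single cells. Without exhausted-like cells 3 members were lower (Slfn1, Slfn5 and Usp18), where 5.53% of genes were lower.

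Other genes of the pathway were read from lists that are not members of the module. Of the receptor chains for type I interferon, Ifnar1 stood at 45.1, 52.9, 53.5 and 46.1 CPM and Ifnar2 at 96.7, 92.5, 97.3 and 81.6 CPM. Of 10 receptor and signalling genes 1 was higher in EomesTG liver, Stat3 (log2 ratio 1.15), and 1 lower, Ifngr2, a chain of the interferon gamma receptor (-1.10). Over all genes of that comparison 13.7% were higher and 6.67% lower. In EomesTG spleen 2.68% of all genes were higher and 4.93% lower. Of 17 measured genes induced mainly by interferon gamma, 11 were higher and 0 lower there, with a median log2 ratio of 0.69. The GTPases Iigp1 (5.36 to 28.8 CPM from WT to EomesTG), Gbp10 (5.74 to 14.7 CPM) and Tgtp1 (9.15 to 23.5 CPM) led them. In liver 1 of the 17 was higher and 3 were lower, against 13.7% and 6.67% of all genes. Socs3, a feedback inhibitor of cytokine receptors, stood at 24.9, 65.4, 85.2 and 56.7 CPM, higher in EomesTG spleen (1.39) and lower in EomesTG liver (-0.59). Irf1 was higher in EomesTG spleen (0.72). Of the 7 interferon regulatory factors besides Irf7 and Irf9, Irf8 alone was called in liver, higher at 1.32. Ifng, the gene of interferon gamma, stood at 5.49, 6.72, 142 and 404 CPM. Among other interferon-induced genes 2 of 48 measured were higher in EomesTG spleen, among them Ly6a (67.5 to 227 CPM). In EomesTG liver 0 of 47 were higher and 4 lower, which were Ifitm3, Ms4a4c, Ly6e (1106 to 693 CPM) and Epsti1 (451 to 282 CPM). The 2 of 48 and the 4 of 47 lie near the shares over all genes, 2.68% higher in spleen and 6.67% lower in liver. For the 0 of 47 higher in liver, the share over all genes was 13.7%.

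To compare single cells, each was thinned to 2000 UMIs, which left out 254, 373, 192 and 586 shallower cells and kept 5079, 5353, 2933 and 3931. A cell then held a mean of 4.32, 3.84, 4.66 and 3.57 member UMIs, and the median was 3 in every library. Cells with 0 member UMIs made up 8.09, 7.92, 8.59 and 9.39% (1.48 to 3.74% before thinning). The upper tail differed more. The 95th percentile was 12, 10, 14 and 9 UMIs and the 99th was 27, 22.5, 32 and 19 UMIs. Cells with at least 12 member UMIs numbered 293, 218, 218 and 120. In spleen they made up 5.77% (5.14 to 6.45) of WT and 4.07% (3.56 to 4.64) of EomesTG cells, and in liver 7.43% (6.51 to 8.44) and 3.05% (2.54 to 3.64), with exact binomial intervals. These intervals treat cells as independent and hold no spread between mice or clones, so they cannot measure a difference between genotypes. High cells had a median of 4830, 4470.5, 5289.5 and 4318 UMIs before thinning, and the others 5130.5, 4903, 5659 and 4199. The 5% of cells with the most member UMIs held 24.1, 23.6, 26.4 and 22.6% of them.

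**Figure D3:**
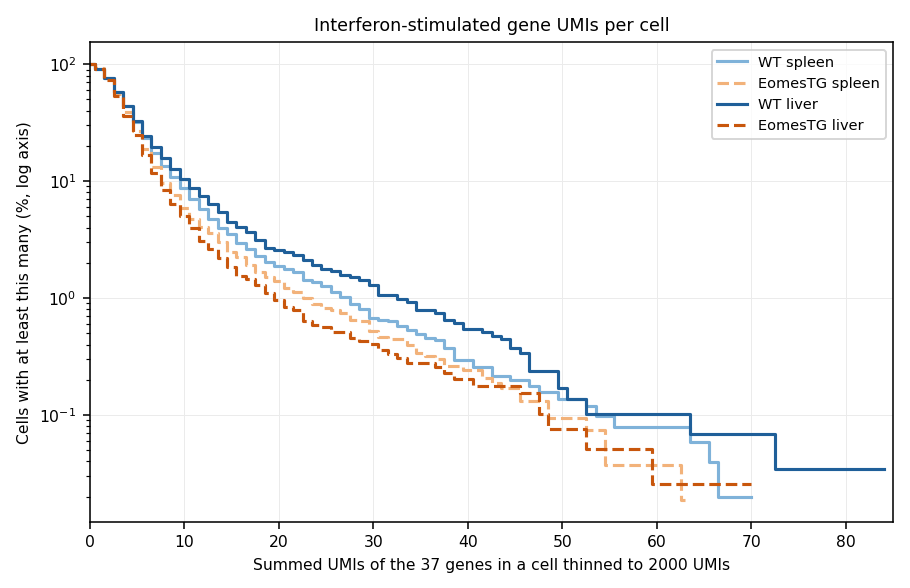
Percent of cells (log axis) with at least a given number of member UMIs when every cell is thinned to 2000 UMIs, 1 line per library. The lines run together near the median of 3 UMIs and fan out above it, with WT liver highest (7.43% at 12 UMIs) and EomesTG liver lowest (3.05%).

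The difference in liver lay both in the tail and in the bulk of the cells. The mean fell by 1.09 member UMIs per cell from WT to EomesTG, and 38.8% of that lay in the highest 5% of cells. The log2 ratio of the means was -0.61 within the highest 5% and -0.31 in the remaining cells. Without the 3 members of the highest level the mean fell by 0.45 UMIs, 64.9% of it in the highest cells. In spleen the mean fell by 0.48 UMIs, with 27.9% in the highest cells and log2 ratios of -0.20 and -0.16 in the highest and the remaining cells. Leaving out the same 3 members turned this into a rise of 0.041 UMIs. The spleen log2 ratios were then -0.11 in the highest and 0.079 in the remaining cells.

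Members ranged widely in how far their UMIs were confined to few cells. The measure was the share of a gene's UMIs in the 5% of cells highest in the other 36 genes, where an even spread gives 5%. Rsad2 had 64.2, 79.9, 67.5 and 60.9% there, Ifit3b 67.8, 66.4, 56.0 and 62.6%, Ifit3 50.2, 58.1, 52.2 and 68.2%, and Ifit1 49.7, 55.5, 56.3 and 50.8%. Ifi27l2a had 14.4, 16.1, 15.4 and 14.8%, and Samd9l, the least concentrated gene on average, 12.6, 13.7, 10.9 and 6.35%. Some genes changed place. Isg15 went from 48.7% in WT spleen to 21.3% in EomesTG liver, Isg20 from 31.6 to 14.1%, and Ifih1 from 24.7 to 9.66%. In the liver of EomesTG mice against their spleen, 2.15% of the gain of Isg15 lay in the highest 5% of cells, and for Isg20 the highest cells had less and the remaining cells all of the gain. The lower genes of EomesTG liver included confined and widely spread ones. Of the loss against WT liver the highest 5% of cells held 74.0% for Rsad2, 63.2% for Ifit1, 58.0% for Mx1 and 45.7% for Ifit3. For Bst2 they held 24.6%, for Slfn1 24.0% and for Oasl2 20.3%. In WT liver such cells held 67.5, 56.3, 45.5, 52.2, 20.7, 19.2 and 28.1% of the UMIs, in that order. The shares of the loss thus cannot sort the genes by where they fell. Log2 ratios in the highest and the remaining cells were -1.18 and -0.76 for Rsad2 and -1.50 and -0.71 for Mx1. Ifit1 gave -0.995 and -0.68, Bst2 -0.86 and -0.64, and Slfn1 -1.08 and -0.73. The remaining cells fell more for Ifit3 (-1.41 and -2.38) and Oasl2 (-0.83 and -1.61). Of 13 measured members with at least 30% of their UMIs in the highest cells on average, 10 were lower in EomesTG liver, with a median log2 ratio of -1.19. Of 6 with 20 to under 30%, 1 was lower, with a median of -0.31, and of 16 with under 20%, 2 were lower (Bst2 and Slfn1), with a median of -0.11. Over all genes 6.67% were lower. Rsad2, Oasl1, Cmpk2 and Oasl2 rest on 9 to 30 thinned UMIs in EomesTG liver.

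**Figure D4:**
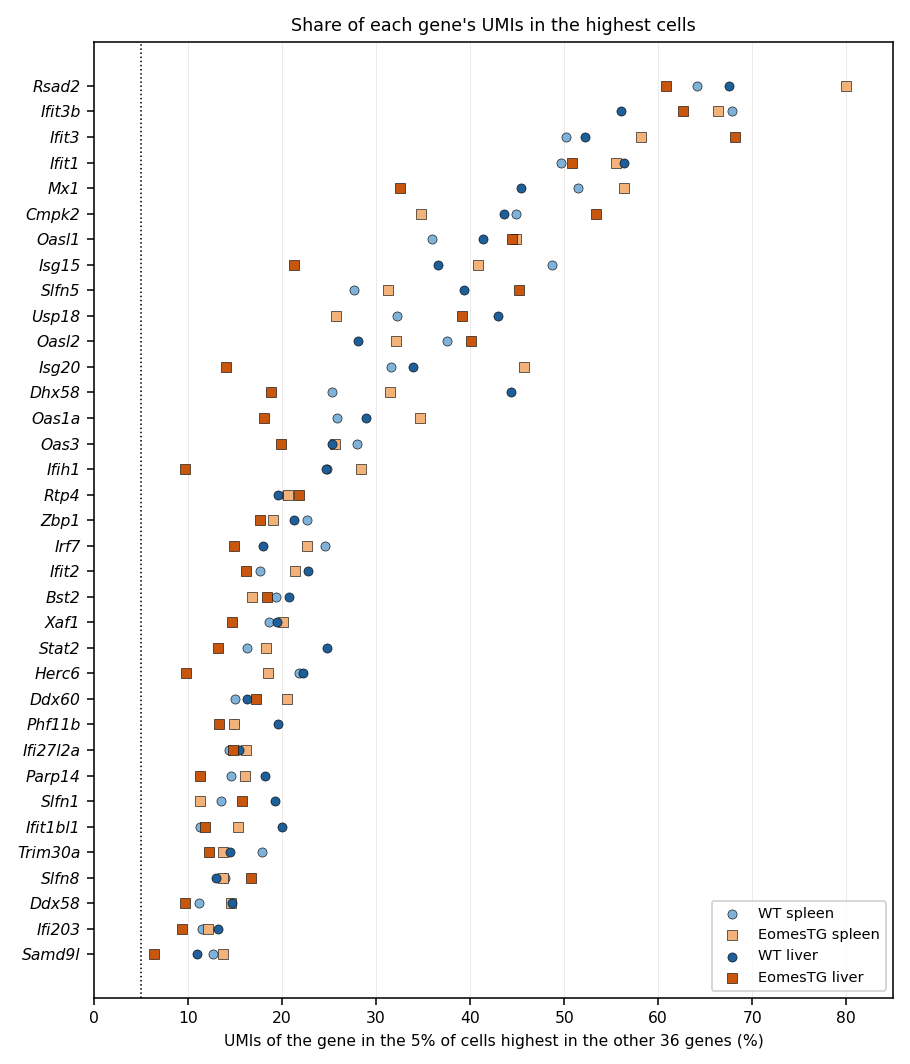
Percent of each gene's UMIs found in the 5% of cells highest in the other 36 genes, in the 4 libraries, with a dotted line at an even spread of 5%. Rsad2, Ifit3b, Ifit3 and Ifit1 lie at 49.7 to 79.9%, while Isg15, Isg20 and Ifih1 have their lowest value in EomesTG liver. Ifi44 and Oas2 are left out because they had 0 thinned UMIs in EomesTG liver.

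The cells of all 4 libraries were also clustered together with the interferon genes allowed to shape the clusters. The cluster with the largest share of member UMIs was picked, and is called the cluster led by members. It had cells from every library. In spleen it held 324 cells in WT (6.08%) and 213 in EomesTG (3.72%), in liver 100 (3.20%) and 36 (0.797%). Its members stood at 7538, 8103, 11769 and 14330 CPM, against 1763, 1609, 1941 and 1662 CPM in the other cells, values that describe how it was formed. Its cells came from several phenotypes, in WT spleen 175 naive-like, 70 memory-like, 55 recent-emigrant-like and 19 effector-like cells. Cells with at least 12 member UMIs and a receptor belonged to 230 clones for 233 cells, 171 for 172, 148 for 169 and 74 for 106. All cells with a receptor belonged to 3884 clones for 3981 cells, 4085 for 4157, 2027 for 2381 and 1048 for 3253. Of the high cells the largest clone had 13 cells in WT liver and 18 in EomesTG liver.

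For phenotypes, cells were clustered without the members and other listed interferon genes, and clusters were named by marker genes. Exhausted-like cells (Pdcd1, Lag3, Cd200r1) made up 0.06, 0.30, 0.67 and 65.7% of T cells, and naive-like cells 42.1, 65.0, 2.85 and 3.81%. Of classes with at least 50 cells, effector-like cells (Cx3cr1, Klrg1, Zeb2) had the highest member sum in all 4 libraries, at 3497, 3190, 3708 and 3128 CPM. Naive-like cells stood at 1985, 1857, 2027 and 1412 CPM, memory-like cells at 1658, 1549, 1575 and 1047 CPM, and NK-like cells (Klra1, Tyrobp, Fcer1g) at 1446, 1440, 1813 and 1255 CPM. Cluster 4, led by the immediate-early genes Fos and Jun, stood at 1722 CPM in WT and 1449 CPM in EomesTG liver, and the exhausted-like cells of EomesTG liver at 1756 CPM. Naive-like cells of WT spleen were mostly of cluster 0 (1568 of 2243) and those of EomesTG spleen mostly of cluster 2 (1987 of 3722), which was led by genes that include Ly6c1, Iigp1 and Ly6a. NK-like cells were mostly of cluster 11 in spleen and of cluster 10 in liver. Cluster 2, and cluster 13 with 315 cells of the exhausted-like class in EomesTG liver, had no marker of their class among their 10 leading genes.

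**Figure D5:**
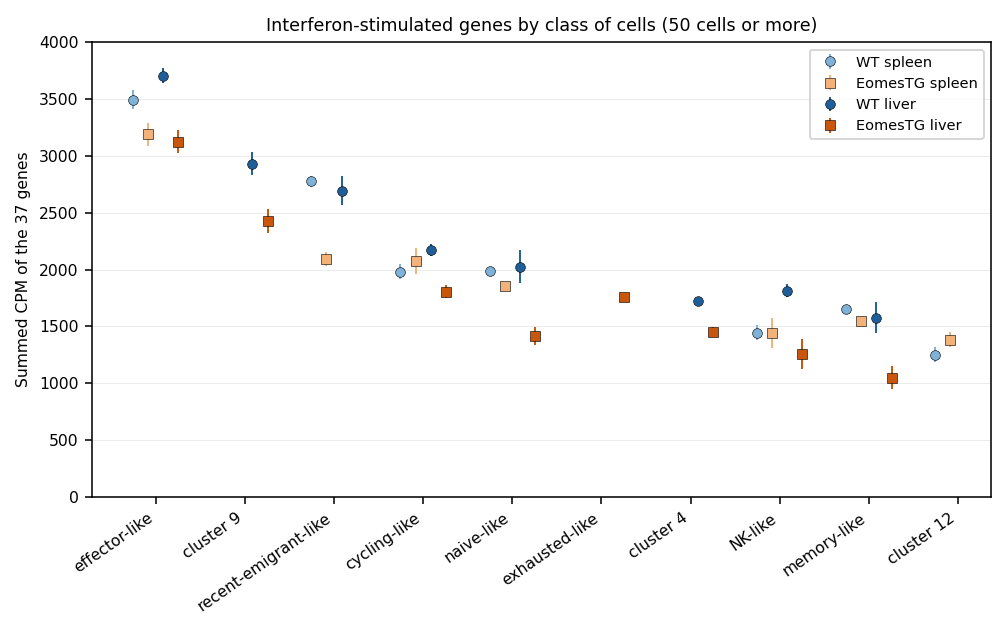
Summed level of the 37 genes, in CPM with 95% counting intervals, in each class with at least 50 cells, by library. Effector-like cells stand highest at 3128 to 3708 CPM, and the EomesTG liver point is below the WT liver point in each class that both libraries fill.

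Within WT spleen, effector-like cells had 16 members higher and 1 lower than naive-like cells of 35, where 18.3% of genes were higher and 4.32% lower. The summed log2 ratio was 0.82. The class was sensitive to the clustering. At a coarser resolution the effector-like class held 117 of its 411 cells and its ratio was 0.10. Those 117 cells had a ratio of 0.19 to naive-like cells, and the other 294 one of 0.97, so the high sum lay mostly in cells that the coarser clusters put elsewhere. Ifi27l2a carried much of the order, at 1563 CPM in effector-like and 605 CPM in naive-like cells of WT spleen. The opposite end was cluster 12, led by the activation genes Egr2, Egr3 and Xcl1, with 22 members lower and 0 higher than naive-like cells, where 12.8% of genes were lower and 23.7% higher. Its summed log2 ratio was -0.67.

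The members' sum in EomesTG liver was also compared within classes. In the 7 of 11 classes with at least 50 cells in both liver libraries, the summed log2 ratio of EomesTG to WT was between -0.59 (memory-like, 58 against 50 cells) and -0.25 (effector-like and cluster 4), with every interval below 0. These intervals cover counting error only, and all come from the same pair of libraries. The effector-like ratio was -0.055 at the coarser resolution, and the other classes, the exhausted-like class among them, had under 50 cells on at least 1 side. The median log2 ratio of members was below that of all genes in all 7 classes. In cluster 4 these medians lay close, at -0.087 and -0.046. Cluster 9 had 2 members higher and 2 lower of 23 measured, where 2.56% of genes were higher and 2.79% lower. In naive-like cells 3 of 13 measured members were lower, where 4.67% of genes were lower. They were Ifi27l2a (-1.09), Zbp1 (-0.97) and Phf11b (-0.80), none of them called over the whole library. The exhausted-like class had 21 cells in WT liver and 2966 in EomesTG liver. Without it 6 members were lower (Ifit3, Ifit3b, Rsad2, Mx1, Oasl1 and Slfn5), where 2.54% of genes were lower, and the sum kept a log2 ratio of -0.31. The log2 ratios were -0.84 for Ifit3, -0.79 for Rsad2 and -0.79 for Slfn5. The 7 calls lost were Bst2, Cmpk2, Ifit1, Oas3, Oasl2, Slfn1 and Usp18. In exhausted-like cells of EomesTG liver Usp18 stood at 3.20 CPM, Slfn5 at 0.623 CPM, Slfn1 at 41.3 CPM and Bst2 at 57.0 CPM, and in the other EomesTG liver cells at 16.1, 8.07, 82.7 and 119 CPM. Isg20 was the reverse, at 48.8 CPM in exhausted-like and 23.9 CPM in the other cells, and Isg15 stood at 145 and 107 CPM. Without the class WT liver had 112 CPM of Isg15, above the 107 of EomesTG liver.

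NK-like cells differed between organs in WT mice, where 10 of 25 measured members were higher in liver and 2 lower, against 18.0% and 4.40% of genes. Herc6 (1.68), Isg15 (1.64) and Ifit1 (1.45) were the highest of these log2 ratios, Ifit1bl1 and Slfn1 were lower, and the cells of the organs were mostly of different clusters, as given above.

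In spleen the lowest summed ratio between genotypes was that of recent-emigrant-like cells (Sox4, Tubb2b), of which there were 978 and 406. There 8 of 33 measured members were lower in EomesTG, where 2.23% of genes were lower: Ifit1 (-1.52), Slfn5 (-1.50), Isg20 (-1.43), Oas3 (-1.25), Mx1 (-1.17), Ifit3 (-0.96), Ifi27l2a (-0.75) and Isg15 (-0.71). The summed log2 ratio was -0.41. In naive-like cells it was -0.10, with 2 of 35 lower (Ifit3b and Slfn5), where 2.46% of genes were lower. Most naive-like cells were of cluster 0 in WT and of cluster 2 in EomesTG, and the ratio was 0.088 when interferon genes were allowed to shape the clusters. In cluster 12 it was 0.14, with Irf7, Ifi203 and Slfn1 higher of 14 measured, where 5.83% of genes were higher. Memory-like cells of EomesTG liver (58) had 8 of 30 members lower than those of EomesTG spleen (951), where 3.44% of genes were lower, among them Isg15 at -1.78 and Ifi27l2a at -1.38. Isg15 was thus lower in liver in this class and higher in liver over the whole library.

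Expanded clones spanned a range of member levels. In EomesTG liver the 2 largest clones, of 492 and 430 cells and both mostly exhausted-like, stood at 2052 (1994 to 2112) and 1525 (1470 to 1581) CPM, and 2 smaller ones of 60 and 59 cells at 2942 and 2386 CPM. Cells with a receptor seen in 1 cell stood at 2084, 1860, 2063 and 1749 CPM. In WT liver the largest clone, 114 mostly effector-like cells, stood at 3010 CPM. The intervals of the 2 largest EomesTG clones did not overlap.

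The genes most like the members were sought as those whose level in the highest 5% of cells exceeded that in the rest by the most in all 4 libraries, taking the lowest of the 4 log2 ratios. Of 6954 genes ranked, 9 of the first 10 were listed interferon genes that are not members: Phf11a (1.77), Ifi213 (1.66), Ifi208 (1.61), Eif2ak2 (1.57), Parp9 (1.54), Phf11c (1.52), Ifi209 (1.45), Daxx (1.42) and Ly6a (1.41). The other was Jaml (1.48), an adhesion receptor of leukocytes. The highest cells were picked by their member UMIs, and the share of listed interferon genes among all genes ranked is not given here.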

How the data were processed

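Expression was measured by 10x Genomics 5′ v1 single-cell RNA-seq in 4 libraries, with 4 T cell receptor libraries. The deposited values are raw UMI counts per gene and barcode and, for receptors, contig tables with counts of UMIs. Reads were processed with Cell Ranger on mm10, per the submitters' processing notes, and per the file headers the software version was 3.1.0 (format 2). The sources used here do not say how reads that map to several genes were treated. Barcodes with at least 500 UMIs, 300 genes and under 10% mitochondrial UMIs were kept (80, 48, 177 and 66 left out). No doublet caller was run, and doublets were not removed. Cells were clustered by Leiden (resolution 1, 2000 variable genes, 30 components, 15 neighbours, 10000 UMIs per cell) without the members, other listed interferon genes, Eomes, receptor, ribosomal, mitochondrial and sex-linked genes. This gave 16 clusters, and 1 of other cells (2, 0, 25 and 4 cells, led by Jchain, H2-Aa and Cd74) was left out.

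UMIs were summed per library, and ratios of CPM got exact conditional binomial intervals, levels exact Poisson intervals. With 1 library per group no p-value was computed. Scripts were tested on simulated data. The module and the gene lists were chosen with earlier results of these data known. Named are all members called in a comparison, the 8 of the highest level, and up to 4 called genes per pathway list and comparison. Members outside this rule are given for completeness, and some genes the rule selects are not reported here. Promoters came from RefSeq (GRCm38.p6) and gene positions from GENCODE M21. Tools were scanpy 1.11.5 with leidenalg 0.10.2 and anndata 0.12.19, scipy 1.17.1, scikit-learn 1.9.0, pandas 2.3.3, numpy 2.4.6 and matplotlib 3.10.9 under Python 3.11.15.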

Additional observations from a re-analysis of the deposited data

Results flagged for a closer look

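For 5 members the log2 ratio of EomesTG to WT had opposite signs in spleen and liver, with both intervals away from 0. The share of all genes that do so was not counted, so this number is not read as a trait of the members. Usp18 gave 0.29 in spleen and -1.20 in liver, a difference of -1.49. Slfn1 gave 0.36 and -0.68, a difference of -1.03. Bst2 gave 0.29 and -0.64, a difference of -0.94, and Zbp1 gave 0.39 and -0.30, a difference of -0.69. Isg20 went the other way, with -0.50 in spleen and 0.46 in liver, a difference of 0.97. These differences were not tested, since each value rests on 1 library a side.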

How the results depend on the processing

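No paired analysis was possible because each group is 1 library. Of the alternatives, leaving out exhausted-like cells and leaving out the cluster led by members were chosen after seeing the data. Of the main results 127 values stayed within counting error or 1.5 times, 44 moved and 3 reversed, and of the others 44 stayed, 7 moved and 1 reversed. The cause was not tested. Of the 13 liver calls, Ifit3, Ifit3b and Slfn5 were kept in all 13 settings run. For EomesTG against WT in spleen, the summed log2 ratio reversed to 0.034 without the 3 members of the highest level, was -0.14 with each clone counted once and -0.13 without the cluster led by members, 1 member was higher at a gene minimum of 20 UMIs, and 1 was lower at 2-fold. For liver, the summed ratio was -0.38 in thinned cells, -0.39 with each cell counted the same, -0.24 with each clone counted once, -0.45 with median-ratio scaling, -0.21 without the 3 highest members and -0.22 without the cluster led by members. There 5 members were lower with each clone counted once, 6 without exhausted-like cells and 8 at 2-fold, and 1 was higher in thinned cells and without the 1% highest cells, 2 without the cluster led by members. The shares over all genes were 4.51, 2.54 and 3.17% lower and 13.4, 13.8 and 13.6% higher, in that order. For liver against spleen in WT, the summed ratio was 0.072 with every deposited barcode, 0.020 with each clone counted once, 0.038 with median-ratio scaling, and 0.14 without the 3 highest members or without the cluster led by members, with 4 higher in thinned cells, 5 higher without that cluster, and 0 higher and 0 lower at 2-fold. In EomesTG the summed ratio was -0.11 in thinned cells, with each cell counted the same and without the 3 highest members, and -0.25 with median-ratio scaling. It reversed to 0.047 without the cluster led by members, where the median reversed to 0.036. There 5 were lower with each clone counted once, 3 without exhausted-like cells, and 2 were higher and 6 lower at 2-fold. The shares over all genes were 6.15% and 5.53% lower in these 2 settings, and 14.3% higher and 4.96% lower at 2-fold. Median-ratio scaling shifted all log2 ratios by 0.005 and -0.12 between genotypes in spleen and liver, and by -0.05 and -0.18 between organs in WT and EomesTG. The highest 5% of cells held 25.3, 25.2 and 24.2% of member UMIs in WT spleen, EomesTG spleen and EomesTG liver thinned to 1000 UMIs, and 28.9, 26.2, 30.9 and 23.4% in the 4 libraries without the 3 highest members. The naive-like ratio between genotypes in spleen was -0.19 at resolution 0.5 and reversed to 0.088 with interferon genes allowed in the clustering. The effector-like ratio to naive-like cells in WT spleen was 0.10 and 0.91 in these settings, and that between genotypes in liver -0.055 at resolution 0.5. Depth limits Ifi44, Oas2 and the classes of about 50 cells.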
